A study of Rattus norvegicus with 20 samples.

Results

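The genes described here encode mostly protein components of the core spliceosome and of the small nuclear ribonucleoproteins (snRNPs). They were chosen by symbol, as the *Snrp*, *Sf3a*, *Sf3b*, *Lsm*, *Prpf* and *U2af* genes that reached 5 reads in 10 or more of the 20 libraries. All 51 symbols that match passed this filter, out of 16605 genes that did. By symbol, 22 of them are Sm and Lsm genes, called small here, and 22 are Prpf and Sf3 genes, called large here. The other 7 encode U1, U2 and U2AF proteins. Protein size did not enter this split, so *Sf3b5*, which encodes a small subunit, counts as large, and all Lsm genes count as small. The rule also takes in genes whose products act in the cytoplasm, such as *Lsm1*, *Lsm14a* and *Lsm14b*, and *Snrpd2l*, which is annotated as a pseudogene. These enter the counts and scores as small members. Genes named *Snrnp*, such as *Snrnp70* and *Snrnp200*, do not match the rule and are given with the other spliceosome genes.

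RNA was sequenced from the medial prefrontal cortex (mPFC) of 20 male Sprague-Dawley rats, 1 library per rat. The animals were 6 to 8 weeks old when treatment began, according to the sample labels. In the LSD group, 10 rats received lysergic acid diethylamide (LSD), a psychedelic that acts mainly through the 5-HT2A receptor, at 0.16 mg/kg by intraperitoneal injection on alternate days for 90 days. The 10 controls received saline on the same schedule, and tissue was taken in both groups after 3 weeks without injections according to the labels. The methods of the study give a longer interval and a higher age, the same for both groups. Each library holds poly(A)-selected RNA of a whole tissue piece from 1 hemisphere, so that all cell types are mixed in it.

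The spliceosome removes introns from pre-mRNA. It is built from the U1, U2, U4, U5 and U6 snRNPs, each a small nuclear RNA with its proteins. The Sm proteins form a ring around the U1, U2, U4 and U5 RNAs, and the Lsm2 to Lsm8 proteins form a like ring on U6, whereas the ring that has Lsm1 in place of Lsm8 works in mRNA decay in the cytoplasm. U2AF and the SF3a and SF3b complexes bind the 3' splice site and the branch site, and the Prpf proteins act mostly in the U4/U6.U5 tri-snRNP and in activating the assembled machine.

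The sequences before the start sites of 4 members are shown because these genes stand for both directions of change described below. *Lsm7* had the largest decrease, *Snrpb* was the Sm protein gene that decreased, and *Sf3b1* and *Prpf39* were the increased members whose calls were also made after a correction for gene span. Each run holds 250 bases before and 50 bases after the start in RefSeq on GRCr8, 5' to 3' on the strand of the gene, and capitals mark matches on either strand to CCGGAAG, the core of ETS factor sites, the YY1 motif AAGATGGCG, the NF-Y motif CCAAT, the core promoter element TATAAA or the palindromic NRF1 motif. None of these motifs contains another.
Lsm7 (chr7:9507123-9507422, plus strand): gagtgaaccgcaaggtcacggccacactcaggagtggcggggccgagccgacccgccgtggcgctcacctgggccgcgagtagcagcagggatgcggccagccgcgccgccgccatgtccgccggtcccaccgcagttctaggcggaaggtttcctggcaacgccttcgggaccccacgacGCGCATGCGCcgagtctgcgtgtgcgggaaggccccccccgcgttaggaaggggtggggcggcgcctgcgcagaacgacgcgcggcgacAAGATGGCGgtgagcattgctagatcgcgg
Snrpb (chr3:137832430-137832729, minus strand): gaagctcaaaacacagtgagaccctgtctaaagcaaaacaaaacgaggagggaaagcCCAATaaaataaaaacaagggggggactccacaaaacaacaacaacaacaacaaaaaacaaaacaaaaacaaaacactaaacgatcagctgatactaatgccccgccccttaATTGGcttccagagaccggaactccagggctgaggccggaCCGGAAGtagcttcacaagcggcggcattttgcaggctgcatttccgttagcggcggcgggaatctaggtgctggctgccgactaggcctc
Sf3b1 (chr9:64026670-64026969, minus strand): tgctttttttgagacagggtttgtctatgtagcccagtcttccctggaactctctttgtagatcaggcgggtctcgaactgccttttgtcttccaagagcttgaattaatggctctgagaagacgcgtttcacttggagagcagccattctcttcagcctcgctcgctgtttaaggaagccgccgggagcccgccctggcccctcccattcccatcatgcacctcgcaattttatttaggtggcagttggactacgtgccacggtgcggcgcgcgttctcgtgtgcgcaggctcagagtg
Prpf39 (chr6:88824990-88825289, plus strand): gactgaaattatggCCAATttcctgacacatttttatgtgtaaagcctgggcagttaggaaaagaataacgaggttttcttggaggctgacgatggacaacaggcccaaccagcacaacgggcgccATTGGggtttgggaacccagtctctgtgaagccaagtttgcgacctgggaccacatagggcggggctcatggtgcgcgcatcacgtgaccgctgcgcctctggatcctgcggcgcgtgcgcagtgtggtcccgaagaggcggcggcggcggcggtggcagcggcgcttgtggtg
RefSeq held a promoter for 45 of the 51 members. CCGGAAG was present in 14 of these 45 (31.1%), in 14.9% of the promoters of all genes tested and in 9.22% of all 27457 promoters in the table. The NRF1 motif was found in *Lsm7*, *Sf3a2* and *Snrpb2* (3 members, 6.67%, beside 1.64% of the genes tested and 0.932% of all promoters). AAGATGGCG was found in *Lsm7*, *Prpf38b* and *Sf3a1* (3 members, 6.67%, beside 3.31% and 1.93%). TATAAA was present only in *Snrpg* (2.22% of members, 7.22% of the genes tested and 14.3% of all promoters), and CCAAT was about as frequent in members (40.0%) as in the genes tested (36.9%) and in all promoters (37.7%). Among the members that changed with LSD, CCGGAAG was present in 1 of 7 decreased genes, *Snrpb*, and in 0 of 3 increased genes. Of the runs printed above, that of *Sf3b1* held none of the motifs. A match is a description of the letters and not a binding site.

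The depth of the LSD libraries was 16346629 to 25552681 reads on genes and that of the controls 11098076 to 24201351, with 9 of the 10 LSD libraries above the median of the controls. Markers of cortical neurons were abundant in all libraries, with at least 1583 RPM (reads relative to the TMM-scaled library size) for *Slc17a7*, the vesicular glutamate transporter of excitatory neurons, and at least 219 for *Gad1*, the GABA synthesis enzyme of interneurons. Of 44 tested markers of 8 cell types and of the neighbouring striatum, 3 were higher and 3 lower in LSD-treated rats, beside 6.48% higher and 8.54% lower of all genes tested. The interneuron markers *Gad2* and *Vip* and the astrocyte marker *Slc1a2* were higher. The interneuron markers *Slc32a1* and *Sst* and the pan-neuronal *Tubb3* were lower. The summed level of 6 striatal markers, among them *Drd1*, *Drd2* and *Adora2a*, was between 201 and 435 RPM in LSD-treated rats (median 244). In controls it was between 230 and 609 (median 300), and 4 libraries were above 400 (LSD rat 9 and control rats 2, 8 and 9). That of 6 oligodendrocyte markers was between 2232 and 5761 RPM (median 3853) and between 2195 and 7479 (median 4751). The median log2 fold change was -0.71 over the striatal and -0.35 over the oligodendrocyte markers, none of which passed the threshold. The part of these cell types in the results on members was not tested. The balance of short against long genes was lower in the LSD group, and 1 control library stood apart in it. Outside the 51 members, the mean log2(RPM + 1) of genes spanning under 10 kb minus that of genes over 100 kb was -0.63 in control rat 9, while it lay between -1.07 and -0.86 in the other controls and between -1.16 and -1.05 in LSD-treated rats. The group means of this balance were -1.11 ± 0.04 with LSD and -0.93 ± 0.12 with saline (SD, n = 10), a difference of -0.17. All 10 LSD-treated rats were below the control median, and 9 controls were above every LSD-treated rat.

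The comparison of LSD with saline asks which transcripts differed after the drug was stopped, and no sample was taken during treatment. Of the 51 members, 3 were higher and 7 were lower in LSD-treated rats, and 41 did not pass the threshold (edgeR's quasi-likelihood test, adjusted p under 0.05 by the Benjamini-Hochberg method over all genes tested). *Sf3b1*, *Prpf4b* and *Prpf39* were the increased genes, and *Lsm2*, *Lsm4*, *Lsm7*, *Snrpa*, *Snrpb*, *Sf3b4* and *Sf3b5* the decreased ones. The lower members make up 13.7% of the list, against 8.54% of all genes tested, the higher ones 5.88% against 6.48%, and both together 19.6% against 15.0%, so that nothing is read from these shares about the members as a group. The median log2 fold change of the members was -0.02, beside 0.00 over all genes tested, with a range from -0.39 to 0.38. With scaling by total counts instead of TMM, which raised the median of all genes to 0.05, 4 members were higher and 5 lower, against 9.06% and 5.17% of all genes (14.2% in either direction), so that the lower share of the members called fell from 70.0% to 55.6% and that of all genes called from 56.9% to 36.3%. In bulk tissue, fewer cells of a type and less RNA per cell cannot be told apart.

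**Figure D1:**
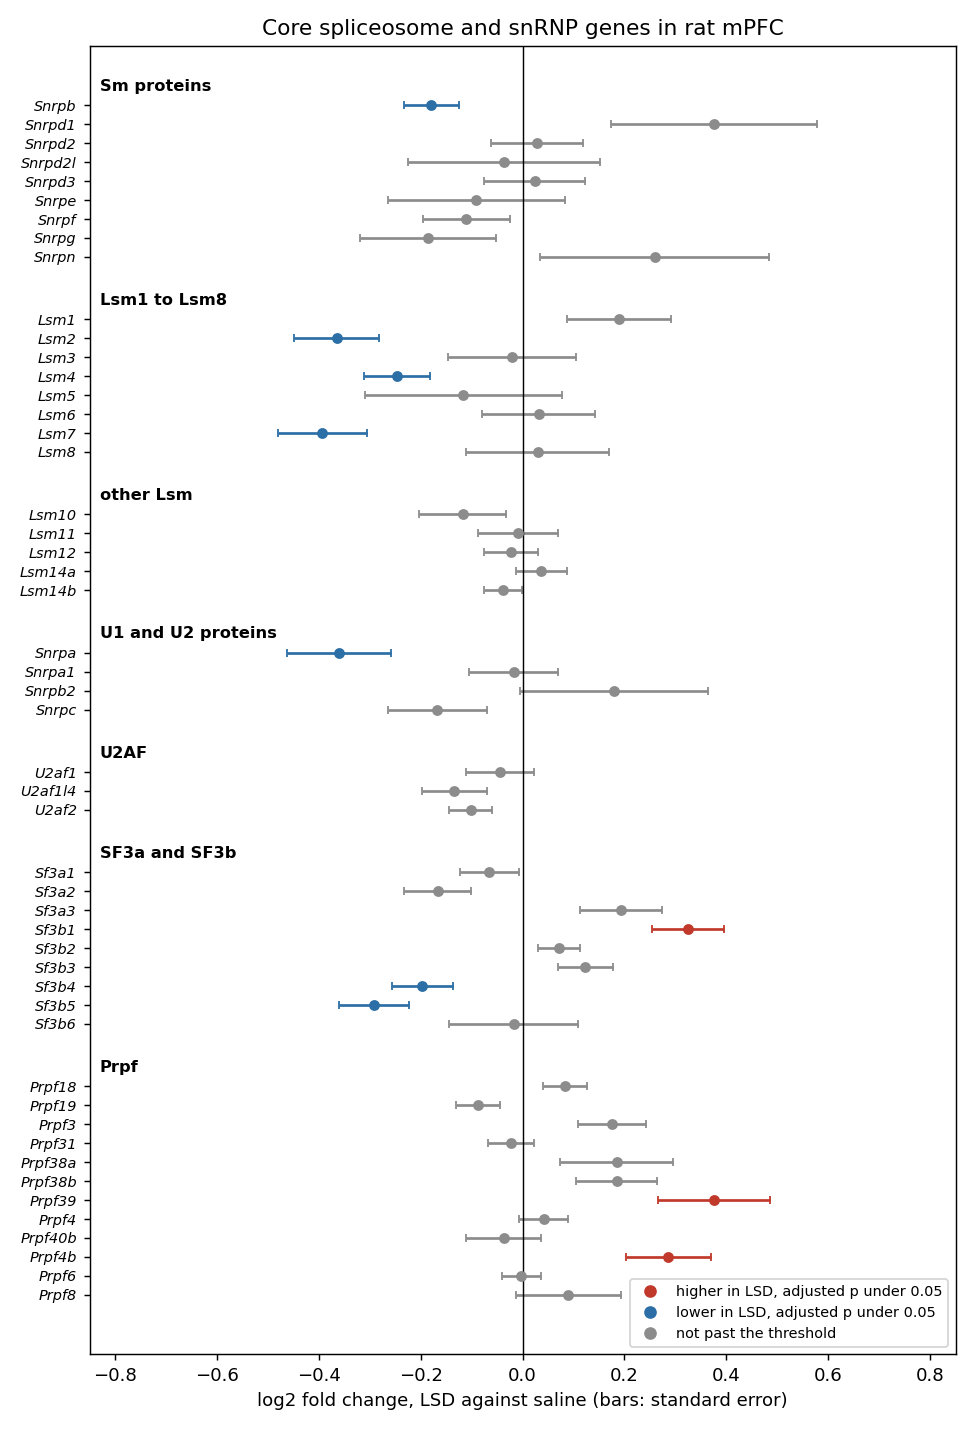
Log2 fold change of the members in LSD-treated rats, without 1 that is not reported here, against controls, with bars for the standard error (SE) and members sorted by role. The 7 decreased genes lie between -0.39 and -0.18 and the 3 increased genes between 0.29 and 0.38, while *Snrpd1* had a large positive value with a wide error and did not pass the threshold.

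In the Lsm ring genes, 3 of 8 decreased (37.5%) and none increased, beside 8.54% lower and 6.48% higher of all genes tested. The median span of these 8 genes is 5783 bases, and 18.1% of the genes outside the list that span under 10 kb were lower. *Lsm7*, a subunit of both the nuclear and the cytoplasmic ring, lay between 25.3 and 33.9 TMM-normalised RPM in LSD-treated rats (median 28.5) and between 28.5 and 48.4 in controls (median 37.9). All 10 LSD-treated rats were below the control median, 5 of them below every control, and 6 controls were above every LSD-treated rat. The log2 fold change (log2FC) of *Lsm7* was -0.39 (SE 0.087, adjusted p = 0.00807 by the same test), a decrease of mean level from 37.7 ± 6.69 to 28.7 ± 2.78 RPM (SD, n = 10 rats per group).

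*Lsm2*, also shared by both rings, lay between 6.88 and 10.2 RPM in LSD-treated rats (median 8.52) and between 9.17 and 14.1 in controls (median 10.3). Only 1 LSD-treated rat reached the range of the controls. The log2FC of *Lsm2* was -0.36 (SE 0.084, adjusted p = 0.00888, edgeR's quasi-likelihood test). *Lsm4*, another shared subunit, lay between 54.7 and 62.6 RPM with LSD (median 59.4) and between 55.6 and 86.9 with saline (median 69.7), and 8 controls were above every LSD-treated rat. It had a log2FC of -0.25 (SE 0.066, adjusted p = 0.0173), and its spread was much narrower with LSD, with means of 59.3 ± 2.05 and 70.3 ± 10.01 RPM (SD, n = 10). The calls of *Lsm2*, *Lsm4* and *Lsm7* were made whichever rat was left out.

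The remaining ring genes, *Lsm1*, *Lsm3*, *Lsm5*, *Lsm6* and *Lsm8*, did not pass the threshold, with log2FC values from -0.12 to 0.19. *Lsm1*, which defines the cytoplasmic ring, had 6.37 ± 0.928 RPM with LSD and 5.58 ± 0.926 with saline (SD, n = 10; log2FC 0.19, adjusted p = 0.214), and *Lsm8*, which defines the nuclear ring, had 10.5 ± 1.70 and 10.3 ± 3.20 RPM (log2FC 0.03, adjusted p = 0.913). The log2 ratio of *Lsm1* to *Lsm8* reads within each rat was -0.72 ± 0.22 with LSD and -0.84 ± 0.29 with saline (SD, n = 10), a difference of 0.11 with an adjusted p of 0.455 over 4 ratios (exact two-sided permutation test over all 184756 splits of the rats), and it was -0.034 after reads were drawn down to the smallest library. These genes are counted at low depth, from 11 reads for *Lsm5* to 389 for *Lsm8* per rat. Their SEs, from 0.10 to 0.19, were larger than those of *Lsm2*, *Lsm4* and *Lsm7*. *Lsm2*, which passed the threshold, had a SE of 0.084 on 104 to 262 reads per rat, within the same range of reads. The part of depth in these SEs was not tested. The Lsm genes outside the rings, namely *Lsm10* and *Lsm11* of the U7 snRNP, *Lsm12*, and *Lsm14a* and *Lsm14b* of cytoplasmic mRNP granules, had log2FC values from -0.12 to 0.04 and none passed the threshold.

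Of the 9 Sm genes, only *Snrpb*, which encodes SmB, passed the threshold, and it was lower (11.1%, beside 8.54% lower of all genes tested). Its level was 31.5 to 38.3 RPM with LSD (median 35.1) and 34.2 to 45.2 RPM with saline (median 40.0), and 7 controls were above every LSD-treated rat. The log2FC of *Snrpb* was -0.18 (SE 0.054, adjusted p = 0.0296). This call was lost when any of LSD rats 2, 4 or 8 or control rats 1, 4 or 5 was left out, with adjusted p-values up to 0.0612, and with scaling by total counts (-0.13, adjusted p = 0.102) or without a filter on low counts (-0.16, adjusted p = 0.0742; all from edgeR's quasi-likelihood test).

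*Snrpd1*, encoding SmD1, had a log2FC of 0.38 but a SE of 0.20 and did not pass the threshold (adjusted p = 0.212). All 10 LSD-treated rats, between 5.67 and 9.58 RPM (median 6.69), were above the control median of 5.38, yet the controls spread from 2.34 to 10.6 RPM and enclosed them. Without control rat 2, which had the highest level, the log2FC was 0.55 and passed the threshold (adjusted p = 0.0347), as it did without the 4 libraries high in striatal markers (0.64, adjusted p = 0.0279, edgeR's quasi-likelihood test; chosen after the data were seen). The other core ring genes were closer to 0. *Snrpd2* had 24.8 ± 2.96 RPM with LSD and 24.3 ± 4.34 with saline, *Snrpd3* 29.1 ± 4.26 and 28.7 ± 5.42, *Snrpe* 3.05 ± 0.456 and 3.21 ± 1.20, *Snrpf* 8.99 ± 1.15 and 9.71 ± 1.33, and *Snrpg* 2.79 ± 0.600 and 3.16 ± 0.623 (SD, n = 10), with adjusted p-values from 0.364 to 0.902. None of these differences is larger than the spread between rats, and *Snrpe* and *Snrpg* rest on 19 to 114 and 32 to 93 reads per rat. *Snrpd2l*, annotated as a pseudogene and similar in name to *Snrpd2*, had 9 to 41 reads and is uncertain if it shares reads with that gene (log2FC -0.04, adjusted p = 0.921).

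*Snrpn* encodes SmN, the form of SmB that prevails in neurons, from an imprinted locus. It was counted with only 3 to 38 reads per rat, 1.10 ± 0.271 RPM with LSD and 0.887 ± 0.416 with saline (SD, n = 10; log2FC 0.26, SE 0.22, adjusted p = 0.464). *Snurf*, which lies over the same stretch of the genome in RefSeq and shares its transcript, had 439 to 1431 reads per rat, so the count under *Snrpn* does not measure SmN mRNA as a whole. *Snurf* had 47.4 ± 4.60 RPM with LSD and 42.4 ± 7.80 with saline (log2FC 0.16, adjusted p = 0.224). The log2 ratio of *Snrpn* to *Snrpb* reads was -5.00 ± 0.36 with LSD and -5.58 ± 0.75 with saline (SD, n = 10), higher in 9 of 10 LSD-treated rats than the control median, and the difference of 0.58 was not past the threshold once adjusted over the 4 ratios (p = 0.0375, adjusted p = 0.150, exact two-sided permutation test).

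Among the U1 and U2 specific proteins, *Snrpa*, whose product binds a stem loop of U1 RNA, decreased. It lay between 10.9 and 17.5 RPM in LSD-treated rats (median 13.8) and between 12.8 and 23.2 in controls (median 18.3), with all LSD-treated rats below the control median. It had a log2FC of -0.36 (SE 0.10, adjusted p = 0.0218), and it passed the threshold whichever rat was left out, with an adjusted p of at most 0.0450 (edgeR's quasi-likelihood test). *Snrpc*, whose product helps U1 contact the 5' splice site, had 2.75 ± 0.194 RPM with LSD and 3.09 ± 0.523 with saline, with all LSD-treated rats below the control median, but on 33 to 85 reads it did not pass (log2FC -0.17, adjusted p = 0.257). The U2 proteins *Snrpa1* and *Snrpb2* had log2FC values of -0.02 and 0.18, with SEs of 0.088 and 0.18.

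None of the 3 U2AF genes passed the threshold, and all had values below 0, although that of *U2af1* was 0.00083 with scaling by total counts. *U2af2*, whose product binds the polypyrimidine tract, had 134 ± 2.80 RPM with LSD and 143 ± 10.2 with saline (SD, n = 10; log2FC -0.10, adjusted p = 0.0981), and every LSD-treated rat was below the control median. Without control rat 10 it passed the threshold (-0.12, adjusted p = 0.0398, edgeR's quasi-likelihood test). *U2af1*, whose product reads the AG at the 3' splice site, had 45.8 ± 4.10 and 47.2 ± 5.95 RPM (log2FC -0.04, adjusted p = 0.706), and *U2af1l4*, a close relative of *U2af1*, had 35.5 ± 1.94 and 38.9 ± 5.35 RPM (log2FC -0.13, adjusted p = 0.160). The log2 ratio of *U2af1* to *U2af2* was -1.55 ± 0.13 with LSD and -1.61 ± 0.23 with saline, a difference within the spread between rats (0.06, adjusted p = 0.490, exact permutation test, n = 10 per group).

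In the SF3b complex, which holds the branch site, members changed in opposite directions. *Sf3b1*, its largest scaffold subunit, increased. Its level was 171 to 242 RPM with LSD (median 218) and 141 to 199 RPM with saline (median 170), and 8 LSD-treated rats were above every control. The log2FC of *Sf3b1* was 0.33 (SE 0.071, adjusted p = 0.00755, edgeR's quasi-likelihood test), with means of 214 ± 21.5 and 171 ± 20.7 RPM (SD, n = 10).

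*Sf3b5*, a small subunit of the same complex, decreased, from 59.1 ± 7.90 RPM in controls to 48.3 ± 3.80 in LSD-treated rats (SD, n = 10). Its values lay between 43.5 and 54.1 RPM with LSD (median 48.5) and between 49.9 and 73.3 with saline (median 58.6), so 7 LSD-treated rats were below every control. It had a log2FC of -0.29 (SE 0.068, adjusted p = 0.00952, edgeR's quasi-likelihood test). *Sf3b4*, an RNA-binding subunit, lay between 35.4 and 45.6 RPM with LSD (median 39.4) and between 38.4 and 52.5 with saline (median 46.4), with a log2FC of -0.20 (SE 0.059, adjusted p = 0.0293). The call of *Sf3b4* was lost without any of LSD rats 7, 8, 9 or 10 or control rats 1, 4 or 5, with adjusted p-values up to 0.0641, and when scaled by total counts (adjusted p = 0.0505) or without a filter on low counts (adjusted p = 0.0649), whereas those of *Sf3b1* and *Sf3b5* were made whichever rat was left out.

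Set side by side in each rat, which was chosen after the values were seen and is given without a test, the log2 ratio of *Sf3b1* to *Sf3b5* reads was between 1.70 and 2.46 in LSD-treated rats (median 2.16) and between 0.94 and 1.98 in controls (median 1.55). All 10 LSD-treated rats were above the control median, and the groups overlapped. As all 10 were already above the control median of *Sf3b1* and below that of *Sf3b5*, this adds nothing to the calls of these genes. The remaining SF3b genes, *Sf3b2*, *Sf3b3* and *Sf3b6*, did not pass the threshold, with log2FC values from -0.02 to 0.12. Nor did the SF3a genes, with log2FC values of -0.07 for *Sf3a1* (adjusted p = 0.478), -0.17 for *Sf3a2* and 0.19 for *Sf3a3*. *Sf3b3* passed when libraries were scaled by total counts (0.17, adjusted p = 0.0398), and *Sf3a3* without the 4 libraries high in striatal markers (0.31, adjusted p = 0.00894, edgeR's quasi-likelihood test).

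**Figure D2:**
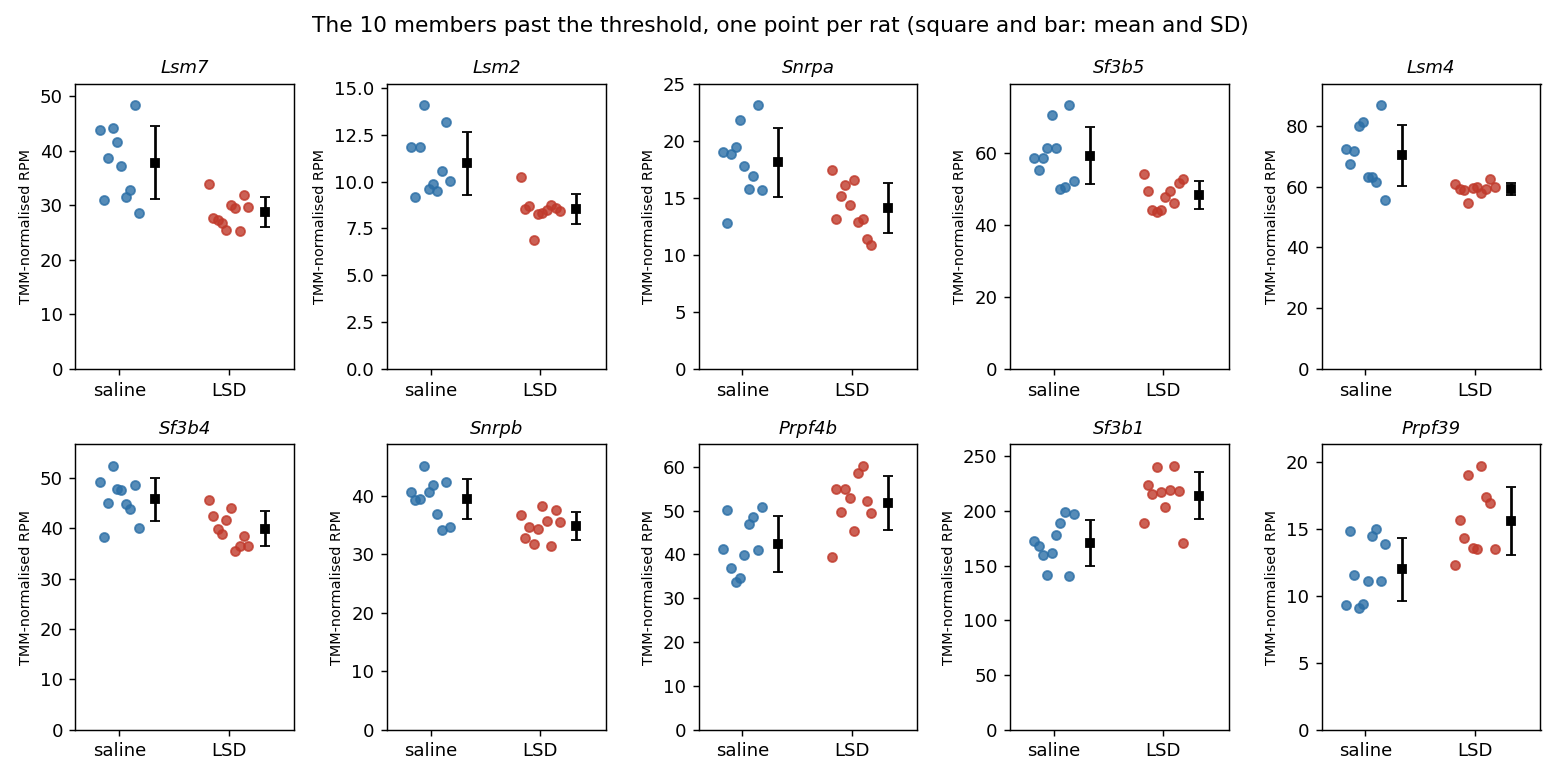
TMM-normalised RPM of the 10 members past the threshold, on axes that start at 0, with 1 point per rat spread sideways in order of rat number, and a square and bar for mean and SD over 10 rats. In each of the 7 decreased genes all LSD-treated rats lie below the control median, while the groups overlap in every panel.

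Of the 13 Prpf genes, 2 increased (15.4%) and none decreased, beside 6.48% higher and 8.54% lower of all genes tested. The median span of these 13 genes is 24448 bases. Outside the list, 2.48% of genes from 10 to 30 kb were higher and 10.2% lower, and from 30 to 100 kb 10.7% were higher and 3.84% lower. *Prpf39*, a U1-associated factor in 5' splice site recognition, lay between 12.3 and 19.7 RPM with LSD (median 15.0) and between 9.07 and 15.0 with saline (median 11.3), with every rat given LSD above the control median. It had a log2FC of 0.38 (SE 0.11, adjusted p = 0.0255), with 0.34 and an adjusted p of 0.0503 without LSD rat 4. *Prpf4b*, a kinase that phosphorylates tri-snRNP proteins during activation, lay between 39.3 and 60.3 RPM with LSD (median 52.6) and between 33.7 and 50.9 with saline (median 41.2), with 6 LSD-treated rats above every control. The log2FC of *Prpf4b* was 0.29 (SE 0.083, adjusted p = 0.0247), with 0.26 and an adjusted p of 0.0511 without LSD rat 8 (all from edgeR's quasi-likelihood test).

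None of the other Prpf genes given here passed the threshold. *Prpf8*, the U5 protein at the catalytic centre, had 337 ± 46.6 RPM with LSD and 317 ± 56.0 with saline (SD, n = 10; log2FC 0.09, adjusted p = 0.598). Its values fell into separate levels within each group, with 212 RPM in LSD rat 10 against 321 to 377 in the other LSD-treated rats, and 216 and 218 RPM in control rats 9 and 2 against 317 to 385 in the other controls. *Prpf19*, a ubiquitin ligase of the activated spliceosome, had 308 ± 13.4 and 327 ± 21.1 RPM (log2FC -0.09, adjusted p = 0.179), and *Prpf31* of the U4/U6 snRNP had 27.5 ± 1.06 and 27.9 ± 1.84 RPM (log2FC -0.02, adjusted p = 0.779). *Prpf3*, *Prpf4*, *Prpf18*, *Prpf38a* and *Prpf38b* had log2FC values from 0.04 to 0.19, *Prpf6* had -0.0021, and none passed. The smallest adjusted p among them was that of *Prpf3* (0.0769), which was 0.0491 with DESeq2.

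*Prpf40b*, a U1-associated protein, had 74.3 ± 7.01 RPM in LSD-treated rats and 76.3 ± 10.2 in controls (SD, n = 10; log2FC -0.04, adjusted p = 0.783). Its lowest value with LSD, 55.5 RPM, was in LSD rat 10.

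Small Sm and Lsm members were next set against large Prpf and Sf3 members. Of the 22 small members, 4 were lower (18.2%) and none higher, beside 8.54% lower and 6.48% higher of all genes tested, with a median log2 fold change of -0.03. Their median span is 9092.5 bases, and 18.1% of the genes outside the list that span under 10 kb were lower. Of the 22 large members, 3 were higher (13.6%) and 2 lower (9.09%), with a median of 0.08. The median span of the large members is 23779 bases. Outside the list, 2.48% of genes from 10 to 30 kb were higher and 10.2% lower, and from 30 to 100 kb 10.7% were higher and 3.84% lower. In each rat the mean log2(RPM + 1) of the small members minus that of the large members was taken, as a description without a test. It lay between -1.98 and -1.69 in LSD-treated rats (median -1.91) and between -1.88 and -1.55 in controls (median -1.84), and 6 LSD-treated rats were below every control. The means were -1.89 ± 0.09 and -1.79 ± 0.12 (SD, n = 10), a difference of -0.10 that is about as large as the spread between rats. Outside the list, the balance of short against long genes differed by -0.17 between the groups. The mean of the large members was 5.60 ± 0.06 with LSD and 5.53 ± 0.04 with saline, and that of the small members 3.71 ± 0.10 and 3.74 ± 0.14. Control rats 9 and 2 and LSD rat 10, the libraries low in *Prpf8*, had the highest differences of their groups, at -1.55, -1.60 and -1.69. The difference between groups was -0.07 without control rat 9 and -0.05 without the 4 libraries high in striatal markers, a choice made after the data were seen.

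**Figure D3:**
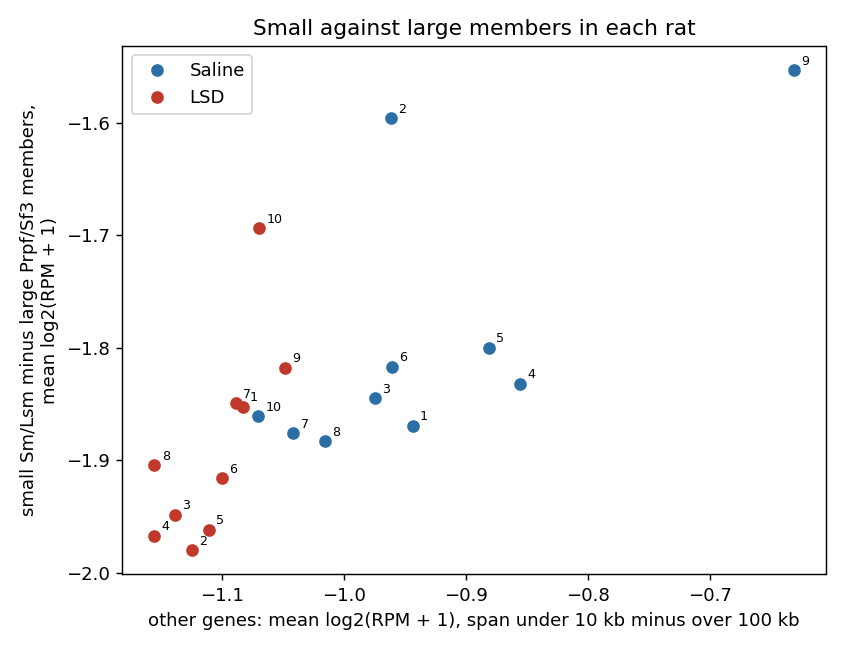
Mean log2(RPM + 1) of the small Sm and Lsm members minus that of the large Prpf and Sf3 members in each rat, against the same difference between short and long genes outside the list, with points labelled by rat number. LSD-treated rats lie at the lower left, 8 of 10 below the control median on the vertical axis and all 10 on the horizontal axis, and control rat 9 is at the upper right.

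The members past the threshold also differed in genomic span, the distance from start to end of a gene. The 7 decreased genes span 0.713 to 8.70 kb in the GRCr8 annotation and the 3 increased genes 26.1 to 39.9 kb, and the decreased *Sf3b4* and *Sf3b5* are themselves short genes at 4753 and 713 bases. Of 19 members under 10 kb, 7 were lower and none higher, with a median log2 fold change of -0.13. Of 23 members from 10 to 30 kb, 1 was higher and none lower, and of 9 from 30 to 100 kb, 2 were higher and none lower, with medians of -0.01 and 0.08. Other genes had the same order, with medians of -0.11, -0.03 and 0.05 in these bins and 0.10 over 100 kb, where the list has no member. Under 10 kb, 36.8% of the members and 18.1% of the other genes were lower. From 10 to 30 kb, 4.35% of the members and 2.48% of the other genes were higher, and 10.2% of the other genes were lower. From 30 to 100 kb, 22.2% of the members and 10.7% of the other genes were higher, and 3.84% of the other genes were lower. Spearman's rho between span and log2 fold change was 0.61 across the 51 members, 0.57 within the small and 0.53 within the large members, and 0.36 across 14878 other genes, all of which share the same libraries and are not independent replicates.

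When the balance of short and long genes was removed from each rat's counts, 2 members were higher and 5 lower, against 3.42% and 6.67% of all genes (10.1% in either direction). *Sf3b1* (0.28, adjusted p = 0.0125), *Prpf39* (0.38, adjusted p = 0.0323), *Lsm7* (-0.30, adjusted p = 0.0147), *Lsm2* (-0.29, adjusted p = 0.0216), *Sf3b5* (-0.20, adjusted p = 0.0238), *Snrpa* (-0.30, adjusted p = 0.0471) and *Lsm4* (-0.17, adjusted p = 0.0498) passed the threshold, by edgeR's quasi-likelihood test with these offsets. *Prpf4b* (0.24, adjusted p = 0.0505), *Sf3b4* (-0.12, adjusted p = 0.136) and *Snrpb* (-0.11, adjusted p = 0.118) did not. The small against large difference was then -0.06.

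**Figure D4:**
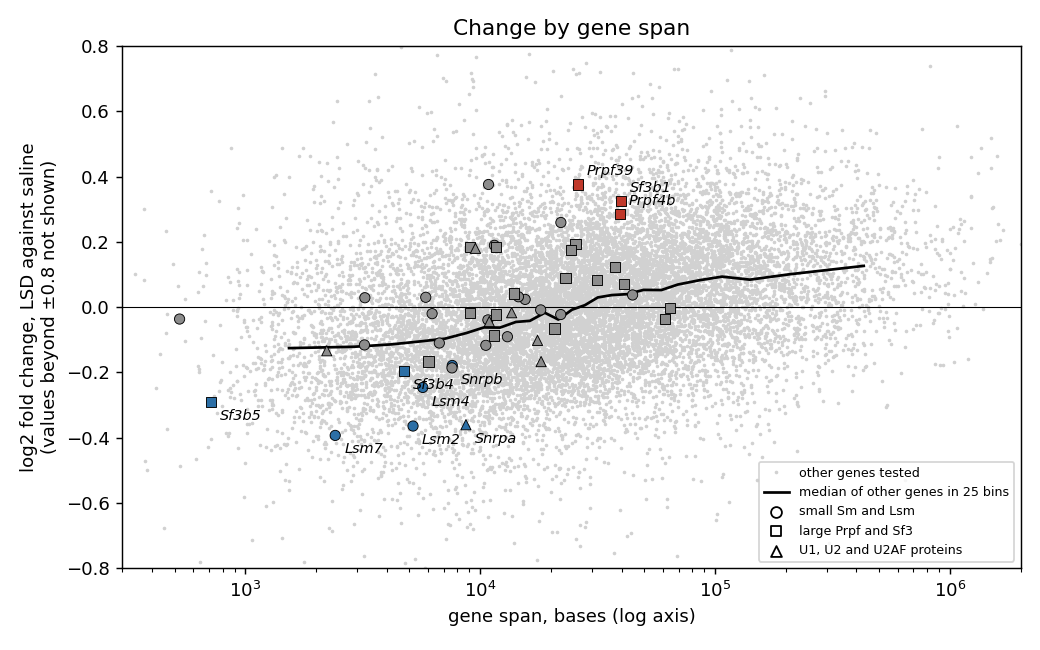
Log2 fold change against gene span on a log axis, for the same members (large symbols, blue where lower, red where higher and grey where not called) and all other genes tested within ±0.8 (grey points), with a line through the medians of 25 bins of other genes. The 7 decreased members lie at the short end under 10 kb and the 3 increased members between 26.1 and 39.9 kb.

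Levels of the members also varied less between LSD-treated rats than between controls. The SD of log2(RPM + 1) was smaller with LSD in 45 of the 51 members (88.2%), in 19 of 22 small and 19 of 22 large members, and in 76.7% of all genes tested. Control rat 9 had the highest level of 17 members (33.3%), 10 of them small, and of 13.7% of all genes, and control rat 4 had the lowest level of 9 members and of 12.2% of all genes. Of the 7 decreased members, 4 were highest in control rat 9 and 3 in control rat 4. 

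Other spliceosome genes were taken from 6 lists by role, with 85 of 88 genes tested. Of these, 8 were higher and 5 lower, beside 6.48% and 8.54% of all genes tested, and their median log2 fold change was 0.04. Among 21 genes of the U1, tri-snRNP and minor snRNPs, only *Zrsr2*, which reads the 3' splice site of minor introns, passed the threshold and was higher (0.19, adjusted p = 0.0244), so that *Snrnp70*, *Snrnp200* and the others did not. Of 9 U2 and branch site genes, the RNA helicases *Ddx46* (0.29, adjusted p = 0.00705) and *Ddx42* (0.21, adjusted p = 0.0139), which act with SF3b, were higher, and *Puf60*, a partner of U2AF, was lower (-0.15, adjusted p = 0.0350; all from edgeR's quasi-likelihood test).

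Of 25 genes of the Prp19 complex, activation and catalysis, 3 were higher and 2 lower. The increased ones were *Mfap1a*, with 20.2 ± 2.17 RPM in LSD-treated rats and 14.9 ± 3.15 in controls (SD, n = 10; 0.43, adjusted p = 0.00884), and *Cwc22* and *Cwc25*, both with log2FC values of 0.27. *Xab2* (-0.23, adjusted p = 0.0244) and the cyclophilin *Ppie* (-0.22, adjusted p = 0.0277) were lower. In the SMN complex and methylosome, which assemble the Sm ring, 1 of 15 genes was lower, *Strap*, from 61.2 ± 4.18 to 51.4 ± 2.73 RPM (-0.25, adjusted p = 0.00402), and 1 was higher, *Tgs1*, which makes the cap of snRNAs (0.17, adjusted p = 0.0266). Of 8 exon junction complex genes, *Rnps1* was lower (-0.14, adjusted p = 0.0469). Of 7 decay partners of the Lsm1 ring, *Xrn1*, the 5' to 3' exonuclease, was higher (0.31, adjusted p = 0.00852). The number of lower genes in these lists varied with the method, from 2 with scaling by total counts to 9 with DESeq2, and from 1 to 9 when each rat was left out.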

How the data were processed

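The authors deposited raw counts per gene. They had used TrimGalore for trimming, Hisat2 for alignment to rn6 and HTSeq-count for counting, and the table is neither normalised nor filtered. Versions, gene annotation and strand setting are not given in the sources used here, so overlapping genes on opposite strands may not be told apart. The matrix lists 31038 symbols and 5 unnamed rows, which hold between 25.5% and 29.0% of all reads per library and were left out. Groups and rat numbers come from the sample labels, and no libraries were identical.

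Genes that reached 5 reads in 10 or more of 20 libraries were kept (16605). LSD and saline were compared with edgeR 4.0.16 in R 4.3.3 (TMM, quasi-likelihood F test, all 20 rats, no covariate), adjusting p-values by Benjamini-Hochberg, with calls under 0.05. The standard error is the log2 fold change divided by the root of F. RPM are TMM-normalised, scores use log2(RPM + 1), and ratios use reads + 0.5 with exact permutation tests in Python 3.11.15 and numpy 2.4.6. Precision is limited by the spread over 10 rats per group. The test was checked on simulated counts. Span came from RefSeq on GRCr8, not rn6, for 89.9% of kept genes and all 51 members. The span correction averaged each rat's deviation in log2(RPM + 1) in 50 span bins, smoothed it over 5, centred it by its median and used it as an offset.

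The alternatives were size factors by median ratios, total counts, DESeq2 1.42.0, 2 other filters, reads thinned to the smallest library, a replicate block, the span correction and each rat left out. The members and lists were chosen with earlier results of these data known. Genes given with full values are the members past the threshold, 22 fixed core members, and from the other lists up to 3 genes past the threshold in each direction with the smallest p. The remaining members are named with ranges. All 51 enter the counts and scores, and 1 of them, not past the threshold, and a ratio with it are not reported here. Protein lengths were not analysed here, so the split of members by protein length was not run.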

Additional observations from a re-analysis of the deposited data

Results flagged for a closer look

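Within groups of 10 rats, a value was examined further when its gap to the nearest other rat exceeded 0.466 of the range of its group. This was the case in 3 of 66 groups of values, where chance gives about 1 in 20. *Prpf8* was at 212 RPM in LSD rat 10, where the next LSD-treated rat had 321. *Prpf40b* was at 55.5 RPM in the same LSD rat 10, where the next had 71.1. *Snrpf* was at 12.9 RPM in control rat 9, where the next control had 10.5. None of these genes passed the threshold between groups.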

How the results depend on the processing

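In 252 of 279 values of 28 named members under alternatives that keep all rats or leave out the 4 libraries, direction and side of the threshold were as in the comparison above. Of the others, 10 lost the call, 4 gained it and 13 changed sign, each time without a call. Among members, 8 were higher and 7 lower with the replicate block (1355 and 1606 of all genes), which changed no call among the 10 members called and added, among others, *Prpf3* (adjusted p = 0.0491), *Prpf38b* (0.0407), *Sf3a3* (0.0424) and *Snrpd1* (0.48, 0.0496; 0.0489 with the span correction as well). The labels give no shared source for a number, and the rats were not taken as pairs: same-numbered rats correlated above 0.1 in 6 of 10 pairs (mean 0.145, beside -0.0157 for other pairs), and 1 LSD-treated rat correlated best with its own number. With the block and the span correction together (added after seeing the data), 6 were higher and 4 lower (758 and 1305 of all genes). There *Lsm4* lost its call (-0.16, adjusted p = 0.0630, edgeR's quasi-likelihood test), and *Sf3b4* and *Snrpb* were not called either. Without the 4 libraries high in striatal markers 5 were higher and 7 lower (1691 and 1673 of all genes, beside 1076 and 1418 with all rats). With each rat left out, 2 to 7 members were higher (7 without control rat 2 and 5 without control rat 10, where 1681 and 1431 of all genes were higher) and 5 to 8 lower. The small against large difference ranged from -0.12 to -0.07 with each rat left out. The cause of these differences was not tested.

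In the other spliceosome lists, 15 genes were higher without the 4 libraries, where calls also rose over all genes, as given above. The lower genes numbered 2 with scaling by total counts, 2 without a filter on low counts, 2 with the span correction, 3 with the span correction and the block, and 9 with DESeq2. With each rat left out, 6 to 10 genes were higher and 1 to 9 lower (9 without LSD rat 1, 1 without control rat 1 or 4, 2 without LSD rat 8 or control rat 3, 5 or 9, and 3 without LSD rat 2, 3 or 4 or control rat 6).

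The log2 ratio of *Lsm1* to *Lsm8* was -0.034 with thinned reads and 0.06 to 0.18 with each rat left out. The other ratios given were 0.43 to 0.68 (*Snrpn* to *Snrpb*, with 0.37 at 5 added reads) and 0.03 to 0.11 (*U2af1* to *U2af2*). Signs changed, without a call, in *Prpf31* (0.023 with total counts, 0.0018 thinned, 0.015 with the span correction, 0.017 with span correction and block, 0.013 without the 4 libraries), *U2af1* (0.00083 with total counts, 0.0026, 0.0060 and 0.033 in the last 3 of these), *Prpf40b* (0.011 with total counts), *Snrpd3* (-0.012 thinned) and *Snrpe* (0.0058 thinned, 0.16 without the 4 libraries). With each rat left out, signs changed in *Lsm8* (-0.018 to 0.12), *Prpf40b* (-0.072 to 0.0064), *Snrpd3* (-0.015 to 0.091) and *Snrpe* (-0.18 to 0.024). Depth limits the low members most, since *Snrpn*, *Snrpd2l* and *Lsm5* had as few as 3, 9 and 11 reads.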
